A study of Mus musculus with 12 samples.

Results

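The angiopoietin and TIE receptor genes were described here in 12 MC38 tumors by RNA sequencing. The members were picked by gene symbol: the ligands Angpt1 and Angpt2, the receptors Tek (which encodes TIE2) and Tie1, and the angiopoietin-like genes Angptl2 and Angptl4, 6 of the 18211 genes measured. All 6 passed the filter on low counts, together with 13563 genes in all. Between tumors of mice given anti-PD-1 and the others, 2 of the 6 members passed the test, against 24.2% of all genes. Angpt1 was higher and Angpt2 lower with the antibody, but Angpt2 no longer passed when some single tumors were left out. None of the other 4 members passed the test in any comparison.

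MC38 is a mouse colorectal adenocarcinoma line, and its cells were grown under the skin of female C57BL/6 mice aged 5 weeks. The mice were split into 4 groups on day 7 after injection of the cells, and 3 tumors per group were sequenced. CK mice received the vehicle, PB-020 mice an oral IGF-1R inhibitor at 50 mg/kg each day, anti-PD-1 mice 200 μg of the antibody on days 9, 12, 15 and 18, and mice of the combination group both agents (PB-020+anti-PD-1). All groups carried the same tumor line in hosts with an intact immune system, so each library mixes transcripts of tumor cells, vessels, stroma and leukocytes. In such bulk tissue, fewer cells of a type and less RNA per cell cannot be told apart. The labels do not say more on the origin of the 3 tumors of a group than that they are separate samples, and p values measure the spread between them.

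Angiopoietins act on the endothelial receptor tyrosine kinase TIE2. Angiopoietin-1, made largely by perivascular cells, activates the receptor and keeps vessels quiescent and sealed. Angiopoietin-2, made by endothelial cells and stored for release, competes with it in many settings and is high in sprouting tumor vessels. TIE1 has no well-established ligand of its own and modulates TIE2. Angiopoietin-like proteins share the fibrinogen-like fold but do not bind TIE2: Angptl2 signals through integrins and leukocyte immunoglobulin-like receptors, and Angptl4 inhibits lipoprotein lipase.

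On the GRCm38.p6 assembly, RefSeq places Angpt1 on the minus strand of chromosome 15, from 42424667 to 42676977. Its GENCODE exons overlap those of Gm17473, an antisense gene, over 737 bases, and reads of the pair cannot be told apart if strand was not used in counting, which the sources used here do not give. Angpt2 lies on the minus strand of chromosome 8 (18690263 to 18741562) inside the span of Mcph1, which runs on the plus strand and shares 0 exonic bases with it. Tek (94739086 to 94874976, plus strand) and Tie1 (118471191 to 118489849, minus strand) are both on chromosome 4, far apart from each other. Angptl2 lies on the plus strand of chromosome 2, from 33215951 to 33247725, within the span of Ralgps1 on the minus strand and with 0 exonic bases shared. Angptl4 occupies 33774900 to 33781575 on the minus strand of chromosome 17.

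RefSeq promoter windows were at hand for 3 of the 6 members, Tek, Tie1 and Angptl2, and were read over 250 bases. The Tek window ends at 94739288, past the RefSeq start of the gene at 94739086, so most of it lies inside the gene. The Angptl2 window ends at 33215960, just past the gene start at 33215951. The Tie1 window lies before the RefSeq span of its gene, but it overlaps GENCODE exons. Its longest stretch outside annotated exons is 38 bases. Tek and Tie1 are shown because their levels moved together across tumors, and Angptl2 because it was the most abundant member. Capitals mark GGAA, the core that ETS factors recognise, or its reverse complement TTCC. Only the stretch outside annotated exons is printed, 5′ to 3′ on the strand of the gene, at chr4:94739039-94739085 for Tek, chr4:118490062-118490099 for Tie1 and chr2:33215711-33215950 for Angptl2 (GRCm38.p6).
Tek: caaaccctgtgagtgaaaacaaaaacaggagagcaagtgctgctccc
Tie1: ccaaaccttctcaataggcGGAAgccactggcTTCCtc
Angptl2: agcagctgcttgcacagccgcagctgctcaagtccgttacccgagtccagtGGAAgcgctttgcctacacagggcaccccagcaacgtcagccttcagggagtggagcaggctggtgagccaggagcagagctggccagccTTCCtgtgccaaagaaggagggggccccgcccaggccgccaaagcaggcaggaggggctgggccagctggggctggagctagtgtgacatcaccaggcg
Over the full 250 bases, counted on both strands, GGAA occurred 7 times in the Tie1 window and 2 times in each of the Tek and Angptl2 windows. Of the 7 in the Tie1 window, 2 lie in the printed stretch. The motif was present in 93.4% of 32851 windows of the same length (median 3 matches), and 3.8% of windows held at least as many as Tie1. The hypoxia core ACGTG (in 16.6% of all windows) and the related GCGTG (in 28.2%) were found 0 times in these 3 windows. CG dinucleotides numbered 2 in Tek, 6 in Tie1 and 9 in Angptl2, against a median of 6.

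Levels are given as FPKM, fragments scaled to gene length and library size, which the authors computed and which can be compared between genes. Tests used the expected counts in edgeR, and adjusted p values are Benjamini-Hochberg values over the 13563 genes tested. Depth, the summed expected counts of a library, was even, from 16545394 to 17217035. Tumors that stood apart were anti-PD-1 tumor 1, whose 10 skeletal muscle markers summed to 648.12 FPKM against 10.94 to 68 in the other 11 tumors, and CK tumor 3, whose adipocyte markers summed to 31.42 FPKM against at most 3.04 elsewhere. Endothelial markers defined the vessels in every library: the 18 genes summed to 122.41 to 187.71 FPKM, with 0 of them at 0 in any tumor. The comparisons with CK share the same 3 CK tumors, so they are not independent of each other.

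The members spanned a wide range of levels. Averaged over the 12 tumors, Angptl2 stood at 185.6 FPKM, above 97.9% of genes, and Angptl4 at 30.1 FPKM, above 83.4%. Angpt2 averaged 6.23 FPKM, Tie1 3.27, Tek 0.74 and Angpt1 0.32. In this order no neighbours overlapped in their ranges over tumors except Angpt2 (3.67 to 12.3 FPKM) with Tie1 (2.48 to 5.08), and Tek (0.49 to 1.14) with Angpt1 (0.03 to 0.79).

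**Figure D1:**
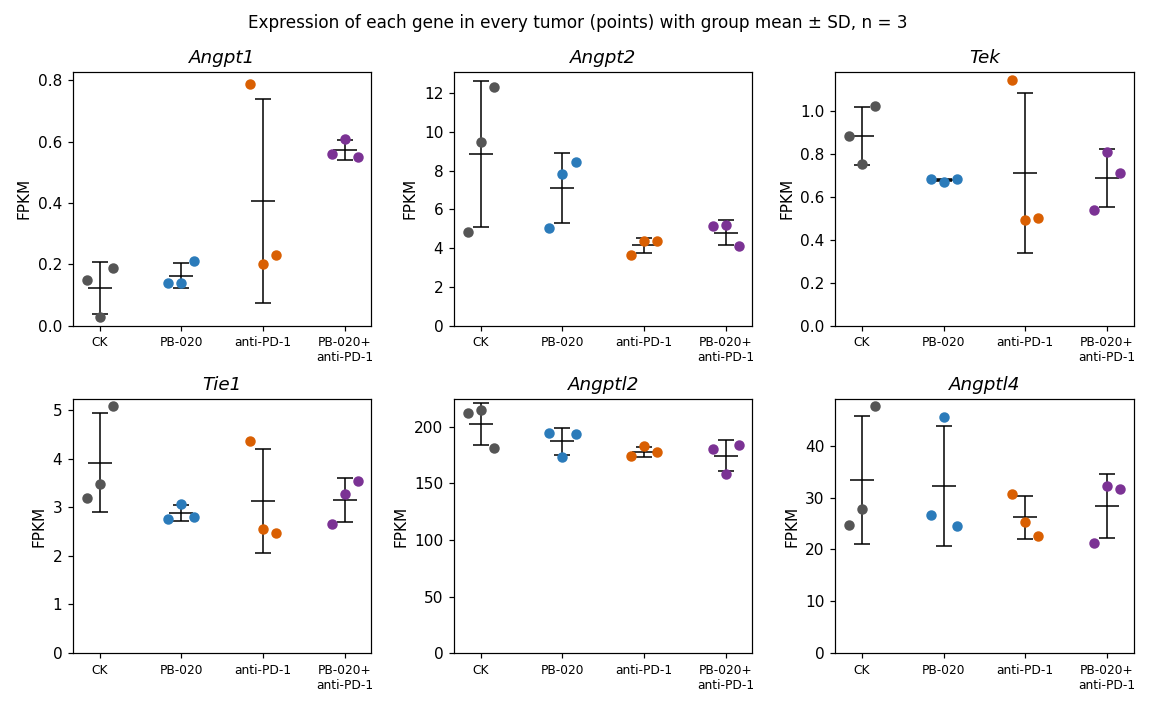
Expression in FPKM of each member in every tumor (points, 3 per group), with the group mean and SD as bars. Angpt1 sits between 0.55 and 0.61 FPKM in the combination group against 0.03 to 0.19 in CK, Angpt2 falls from as much as 12.3 in CK to 3.67 to 4.39 in anti-PD-1 tumors, and the other 4 genes overlap between CK and both anti-PD-1 groups.

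Angpt1, the activating ligand, was the scarcest member and the one that changed most. CK tumors 1, 2 and 3 held 0.15, 0.03 and 0.19 FPKM, which corresponds to 10, 2 and 11 expected counts. PB-020 tumors held 0.14, 0.14 and 0.21 FPKM and anti-PD-1 tumors 0.79, 0.20 and 0.23. In the combination group the values were 0.56, 0.61 and 0.55 FPKM, from 34, 42 and 38 counts. The combination tumors were close to each other and all lay above the CK and PB-020 tumors. The anti-PD-1 tumors all lay above CK as well, although tumors 2 and 3 were only just above and tumor 1, the one with muscle transcripts, was the highest of all 12. Groups did not overlap, in one direction or the other, for 40.7% of genes between the combination and CK and 29.1% between anti-PD-1 and CK. Counting error is large at the low end: the 2 counts of CK tumor 2, below the floor of 3, have an exact 95% Poisson interval of 0.24 to 7.22, which covers counting error only.

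Group means of Angpt1 (± SD, n = 3) were 0.12 ± 0.083 FPKM for CK, 0.16 ± 0.04 for PB-020 tumors, 0.41 ± 0.33 for anti-PD-1 tumors and 0.57 ± 0.032 for the combination. Of these neighbours, CK and PB-020 overlapped, as did PB-020 with anti-PD-1 and anti-PD-1 with the combination. The combination was 5.02-fold above CK (log2 change 2.33, SE 0.55, adjusted p = 0.0136 in edgeR), which passed the test. Angpt1 was the only member of 6 called there, against 17.9% of all genes. Without CK tumor 2 the log2 change was 1.88 with an adjusted p of 0.0585. With anti-PD-1 alone the log2 change was 1.84 (SE 0.56), but the adjusted p of 0.0582 missed the threshold, and without anti-PD-1 tumor 1 the change was 0.99 with an adjusted p of 0.247. In the PB-020 group it was 0.62 (SE 0.60, adjusted p = 0.931).

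The design also allows the antibody to be compared over all tumors, as the mean of its effects with and without PB-020. This main effect on Angpt1 was a 3.41-fold rise (log2 change 1.77, SE 0.39, 95% interval 0.94 to 2.60, adjusted p = 0.00631 in edgeR). The 6 tumors given anti-PD-1 ranged from 0.2 to 0.79 FPKM (median 0.56) and the other 6 from 0.03 to 0.21 (median 0.15), so that they overlapped only through PB-020 tumor 3. Without anti-PD-1 tumor 1 the log2 change was 1.35 (adjusted p = 0.00749). Adding PB-020 to the antibody gave a log2 change of 0.49 (95% interval -0.56 to 1.54, adjusted p = 0.869), which was 1.34 without anti-PD-1 tumor 1 (adjusted p = 0.526), and adding the antibody to PB-020 gave 1.70 (SE 0.53, adjusted p = 0.0826). The latter passed with an adjusted p of 0.0152 when anti-PD-1 tumor 1, a library of neither group, was left out of the shared fit.

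Angpt2, the context-dependent antagonist, went the other way. CK tumors held 4.82, 9.46 and 12.3 FPKM and PB-020 tumors 5.03, 7.83 and 8.44. Anti-PD-1 tumors held 3.67, 4.39 and 4.36 FPKM, and combination tumors 5.13, 5.2 and 4.09. All 3 anti-PD-1 tumors were below all CK tumors, which was so in one direction or the other for 29.1% of genes, whereas 2 combination tumors were above CK tumor 1, so these groups overlapped. The coefficient of variation was 42.6% for CK, 25.6% for PB-020, 9.84% for anti-PD-1 and 12.9% for the combination, a description without a test.

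The main effect of anti-PD-1 on Angpt2 was a log2 change of -0.82 (SE 0.22, 95% interval -1.31 to -0.33, adjusted p = 0.0251 in edgeR), to 0.57 of the level without the antibody. Angpt1 and Angpt2 were thus 2 of 6 members called for this effect, in opposite directions, against 24.2% of all genes. The call on Angpt2 was lost when any of 5 libraries was left out: anti-PD-1 tumor 1 (adjusted p = 0.07), anti-PD-1 tumor 3 (0.0526), CK tumor 2 (0.056), PB-020 tumor 3 (0.0588) and combination tumor 3 (0.0536). Its log2 change stayed between -0.96 and -0.66 over all 12 such fits. For anti-PD-1 alone against CK the log2 change was -1.07 (SE 0.31, adjusted p = 0.0623), and for the combination -0.86 (SE 0.31, adjusted p = 0.0818), so neither passed. With PB-020 alone it was -0.29 (SE 0.30, adjusted p = 0.935).

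The limits that the study set for DE genes, a fold change above 1.5 and an unadjusted p under 0.05, were also applied, with p values from edgeR in place of the study's own test. They took in Angpt1 and Angpt2 for anti-PD-1 (unadjusted p = 0.00574 and 0.00653 in edgeR), where 7.18% of genes passed, and again for the combination (0.000935 and 0.0198), where 8.52% passed. For PB-020 against CK 0 members passed, with 0.56% of genes. By adjusted p, 8.26% of genes were called for anti-PD-1 against CK and 3.35% for the combination against PB-020, with 0 members in each. These numbers of genes depended on single libraries. For anti-PD-1 against CK, 1120 genes were called, but 137 without CK tumor 2, 238 without anti-PD-1 tumor 3, 625 without anti-PD-1 tumor 1, 637 without CK tumor 3, 1905 without anti-PD-1 tumor 2, and 3 when these groups alone were fitted. For the combination against PB-020, 455 genes were called, but 0 and 2 without combination tumors 1 and 2, 1 and 11 without PB-020 tumors 1 and 3, 105 without combination tumor 3, 284 without CK tumor 1, and 1269 and 738 without anti-PD-1 tumors 1 and 2. For the combination against CK, 2434 genes were called, but 864 and 1577 without CK tumors 2 and 3 and 1085 and 1160 without combination tumors 1 and 2. For the main effect of anti-PD-1 the 3279 genes fell to 2156 without CK tumor 2 and 2086 without PB-020 tumor 1. For PB-020 against CK, the combination against anti-PD-1, the main effect of PB-020 and the interaction of the agents, 0% of genes were called by edgeR, at 741, 984, 1475 and 310 genes with an unadjusted p under 0.05. DESeq2 called 6, 1, 61 and 0 genes in these 4 comparisons, and 0 members, although in the third it gave an adjusted p to only 1 of the 6.

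**Figure D2:**
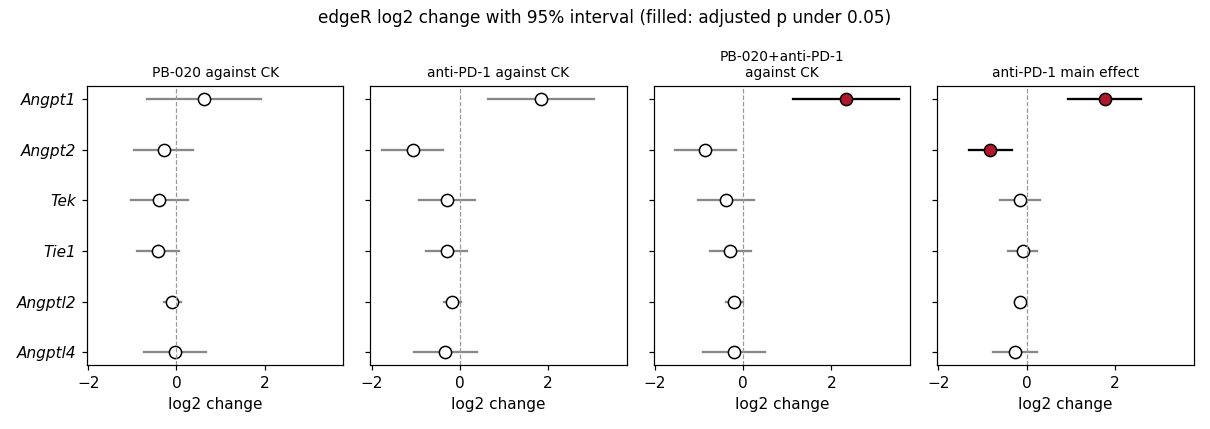
Log2 change of each member with its 95% interval from edgeR in 4 comparisons; filled points have an adjusted p under 0.05. Angpt1 is filled for the combination (2.33) and for the main effect of anti-PD-1 (1.77), Angpt2 for the main effect alone (-0.82), and the remaining points are open.

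The ratio of the ligands was lower in the tumors given the antibody. Angpt2 FPKM divided by Angpt1 FPKM was 32.1, 315 and 64.7 in CK and 35.9, 55.9 and 40.2 with PB-020. It was 4.65, 21.9 and 19 with anti-PD-1 and 9.16, 8.52 and 7.44 in the combination. Every tumor given anti-PD-1 had a lower ratio than every tumor not given it. Among single genes, 8.6% did not overlap in this split, in one direction or the other. The ratio of 315 rests on the 2 Angpt1 counts of CK tumor 2, and no test was run on the ratio, which is built from the values above.

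**Figure D3:**
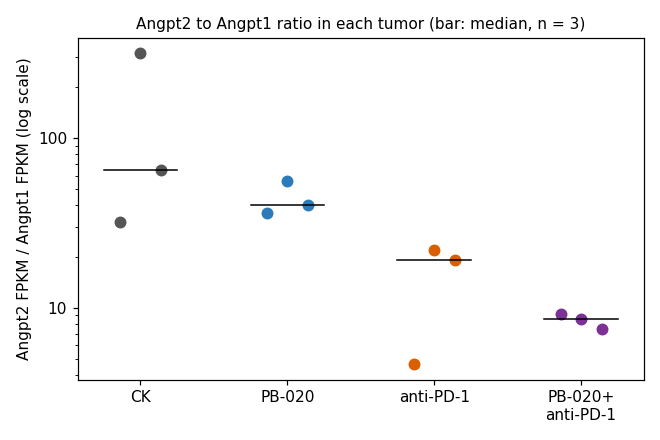
Angpt2 FPKM over Angpt1 FPKM in each tumor on a log axis, with the median of 3 tumors as a bar. The medians are 64.7 in CK, 40.2 with PB-020, 19 with anti-PD-1 and 8.52 in the combination, and the 6 tumors given the antibody all lie at or below 21.9.

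Neither receptor passed the test in any comparison. Tek, which encodes the angiopoietin receptor, stood at 0.88, 0.75 and 1.02 FPKM in CK, 0.68, 0.67 and 0.68 with PB-020, 1.14, 0.49 and 0.5 with anti-PD-1, and 0.54, 0.81 and 0.71 in the combination. Tie1, the co-receptor, stood at 3.19, 3.49 and 5.08 FPKM in CK, 2.77, 3.07 and 2.8 with PB-020, 4.37, 2.56 and 2.48 with anti-PD-1, and 2.66, 3.27 and 3.54 in the combination. For each receptor the PB-020 tumors lay below all CK tumors, a pattern found in one direction or the other for 14.3% of genes between these groups. The log2 changes with PB-020 were -0.39 for Tek (SE 0.30, adjusted p = 0.902) and -0.42 for Tie1 (SE 0.22, adjusted p = 0.874). All other pairs of groups overlapped. Anti-PD-1 tumor 1 was the highest of all tumors for Tek and the second highest for Tie1, and its endothelial sum, 187.71 FPKM, was also the highest. For anti-PD-1 against CK the log2 change was -0.28 for Tek (adjusted p = 0.575) and -0.30 for Tie1 (adjusted p = 0.392 in edgeR). Without anti-PD-1 tumor 1 these changes were -0.80 (adjusted p = 0.0564) and -0.61 (adjusted p = 0.0631 in edgeR), so the values for the receptors depended on that library. Without CK tumor 3 the change of Tie1 was -0.09 (adjusted p = 0.838).

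The interval of the antibody's main effect on Tek ran from -0.60 to 0.31 on the log2 scale (adjusted p = 0.649) and on Tie1 from -0.42 to 0.24 (adjusted p = 0.712 in edgeR). Without anti-PD-1 tumor 1 this effect moved from -0.15 to -0.40 for Tek (adjusted p = 0.0665) and from -0.09 to -0.24 for Tie1 (adjusted p = 0.159). Tie1 was 3.62 to 5.22 times as abundant as Tek in every tumor by FPKM. The log2 CPM of the receptors correlated with r = 0.877 over the 12 tumors, and Tie1 was the gene ranked 19 of all genes by likeness to Tek. These points share libraries, and the correlation is a description.

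To set the members against the amount of vessel transcript, each was divided by the geometric mean FPKM of the 18 endothelial markers, which ran from 3.47 to 6.46. The Tie1 ratio ran from 0.69 to 0.79 over the 12 tumors and the Tek ratio from 0.14 to 0.20. Divided by the summed FPKM of the markers instead, Tie1 ran from 0.0186 to 0.0275 and Tek from 0.00374 to 0.00643. Between tumors given and not given anti-PD-1, the mean log2 ratio differed by 0.020 for Tie1 (exact permutation p = 0.604) and by -0.081 for Tek (exact permutation p = 0.463). With the summed FPKM these differences were -0.15 (exact permutation p = 0.0887) and -0.25 (exact permutation p = 0.0801). For Angpt2 the difference was -0.64, a ratio 0.64 times as high (exact permutation p = 0.0281, 0.225 after adjustment over the 16 tests of this kind). For Angpt1 it was 1.95, or 3.86-fold higher in tumors given the antibody (exact permutation p = 0.00216, the smallest that 924 splits allow, 0.0346 after adjustment, two-sided). Without CK tumor 2, which held 2 counts of Angpt1, the difference was 1.52 (exact permutation p = 0.00433). Angpt1 per endothelial level was at least 0.058 in all 6 tumors given the antibody and at most 0.053 in the other 6. In this split 8.6% of single genes, not divided by the endothelial level, did not overlap. Comparisons of 3 with 3 tumors cannot reach a p under 0.1 in this test. The ratios reuse the values of the members in the same tumors, so these results are not independent of the main effects above.

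Of the genes whose log2 CPM ran most like a member over the 12 tumors, the 5 nearest to Angpt1 were Cd226 (r = 0.987), Ms4a4b (0.986), Ikzf4 (0.964), Ltb (0.963) and Grap2 (0.961), most of which are known from lymphocytes. The r of Angpt1 with Cd226 was 0.963 after group means were removed and 0.984 without anti-PD-1 tumor 1. The 9 measured T cell markers, which include Cd3d, Cd8a and Cd4, moved with Angpt1: they summed to 17.19, 13.42 and 18.52 FPKM in CK, 21.84, 19.83 and 24.89 with PB-020, 74.55, 31.09 and 29.76 with anti-PD-1 and 35.8, 58.62 and 48.4 in the combination. The 4 tumors richest in T cell transcripts were the 4 with the most Angpt1, and CK tumor 2 was the lowest for each. For the main effect of the antibody 8 of 9 markers were called higher, where 24.2% of all genes were called. All 9 were higher by sign, with a median log2 change of 1.39 beside 0.00 over all genes. Without anti-PD-1 tumor 1, 8 were again called higher. Cd3d rose by 1.84 (SE 0.30, adjusted p = 0.00164 in edgeR) on the log2 scale. The part of T cells in the Angpt1 result was not tested.

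Pericytes and platelets are known to make or carry Angpt1. Of 13 pericyte and smooth muscle markers, 3 were called higher (Cspg4, Acta2, Tagln) and 4 lower (Pdgfrb, Kcnj8, Abcc9, Mcam) for the main effect. By sign 7 were higher and 6 lower, with a median of 0.09, so the list was split. Without anti-PD-1 tumor 1 the counts called were 1 and 6. Pdgfrb, 1 of the 4 called lower, fell by 0.35 (SE 0.055, adjusted p = 0.00131 in edgeR). Platelet markers summed to 78.45 to 151.32 FPKM in CK and 69.4 to 101.88 in the combination, with 0 of 4 higher and 2 called lower for the main effect. The 10 fibroblast markers summed to 1879.58 to 2517.63 FPKM in CK, 902.31 to 1807.35 with anti-PD-1 and 977 to 1387.32 in the combination, with 2 called higher and 3 lower for the main effect. These sums weigh abundant genes most. By sign 7 of the 10 markers were higher and 3 lower for that effect, with a median log2 change of 0.46. The 10 macrophage markers summed to 1544.86 to 1904.88 FPKM in CK, 1531.3 to 2938.11 with anti-PD-1 and 2016.41 to 2374.83 in the combination, with 1 called higher and 0 lower. In no tumor was any of these fibroblast or macrophage markers at 0, and the part of these cells in the results on the members was not tested.

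Angpt2 ran most like Esm1 (r = 0.944), a gene of endothelial tip cells, followed by Fkbp1b (0.937), C1qtnf9 (0.926), Smarcad1 (0.894) and Depp1 (0.886). Esm1 stood at 3.92, 9.85 and 11.41 FPKM in CK, 4.84, 7.63 and 5.65 with PB-020, 2.84, 4.68 and 3.13 with anti-PD-1 and 4.55, 4.6 and 2.93 in the combination, so the CK tumor low for Angpt2 was also low for Esm1. Esm1 fell by 0.90 (SE 0.27, adjusted p = 0.0348 in edgeR) for the main effect of the antibody. Of 9 tip cell and sprouting genes 4 were called lower for that effect, namely Esm1, Apln, Dll4 and Pgf, and 0 higher, where 24.2% of all genes were called. By sign 7 were lower and 2 higher, and the median log2 change was -0.32. Without anti-PD-1 tumor 1, or without CK tumor 3, 3 were called lower, the call lost being that of Esm1 (adjusted p = 0.0925 and 0.0668 in edgeR). Apln, the apelin peptide gene, fell by 0.89 (SE 0.13, adjusted p = 0.0016 in edgeR) and Dll4, a Notch ligand of tip cells, by 0.63 (SE 0.11, adjusted p = 0.00253). The 18 endothelial markers as a list had a median of -0.10, with 1 called higher and 1 lower, but with 1 higher and 4 lower without anti-PD-1 tumor 1. Erythroid transcripts were also lower with the antibody. Their sum was 679.24 to 1555.91 FPKM in CK and 126.61 to 183.84 in the combination, and 5 of 5 tested were called lower for the main effect. Within CK the sums were 1555.91, 1295.56 and 679.24 FPKM in tumors 1, 2 and 3, the reverse of the order of Angpt2. With 3 tumors this order is a description only. The part of these cell types in the Angpt2 result was not tested.

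**Figure D4:**
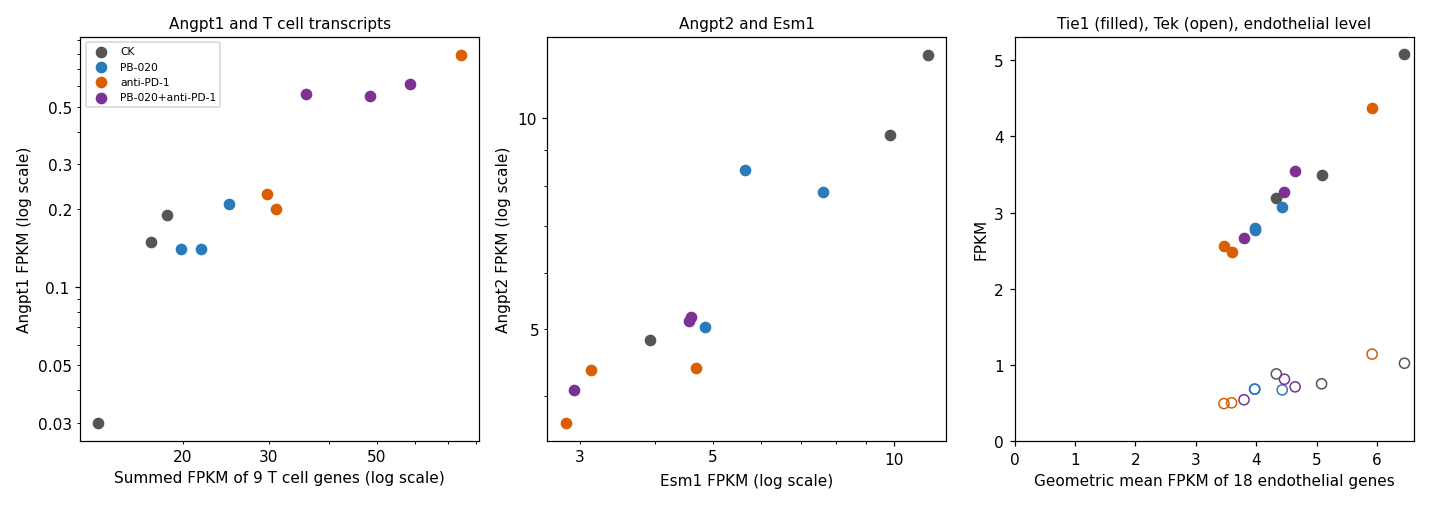
Each point is a tumor, coloured by group: Angpt1 against the summed FPKM of 9 T cell markers (left, log axes), Angpt2 against Esm1 (middle, log axes), and Tie1 (filled) and Tek (open) against the geometric mean of 18 endothelial markers (right, linear axes). Angpt1 is highest where T cell transcripts are (35.8 to 74.55 FPKM), Angpt2 runs with Esm1 at r = 0.944, and Tie1 stays at 0.69 to 0.79 of the endothelial level.

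The genes nearest to Tek were Lrrc17 (r = 0.949), Nxpe5 (0.934), Selenop (0.929), Esam (0.918), an endothelial adhesion molecule, and Csf1r (0.915), the macrophage growth factor receptor. The nearest to Tie1 were Pecam1 (0.952), the endothelial marker CD31, Galns (0.939), Sh2d3c (0.931), C130074G19Rik (0.931) and Esam (0.93). Pecam1 did not pass the test for the main effect (log2 change -0.09, SE 0.12, adjusted p = 0.609).

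Of 21 ligand, receptor and signaling partners 19 were tested. For the main effect of anti-PD-1, 4 were called higher and 2 lower, with a median log2 change of -0.01, where 24.2% of all genes were called. Those called against CK were Grb14, an adaptor that binds TIE2, and Nos3, the endothelial nitric oxide synthase that acts downstream of it. Grb14 stood at 1.41 to 1.88 FPKM in CK, 2.24 to 4.02 with anti-PD-1 and 2.25 to 3.71 in the combination, and rose by 0.96 (SE 0.24, adjusted p = 0.03) and 0.88 (SE 0.24, adjusted p = 0.0252 in edgeR) on the log2 scale. Nos3 stood at 2.15 to 2.32 FPKM in CK, 1.42 to 1.56 with anti-PD-1 and 1.42 to 1.64 in the combination, and fell by 0.60 (SE 0.14, adjusted p = 0.0224) and 0.59 (SE 0.14, adjusted p = 0.0126 in edgeR). Neither gene overlapped between CK and the antibody groups, as was so for 29.1% of genes with anti-PD-1 and 40.7% with the combination. For anti-PD-1 against CK the call on Grb14 was lost without anti-PD-1 tumor 1, and without CK tumor 3 both were lost, 0 of 20 partners being called. Without CK tumor 3, 0 partners were called higher and 1 lower in the combination, and 2 higher and 1 lower for the main effect.

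For the main effect of anti-PD-1 the 4 partners called higher were Dok2, Foxo1, Grb14 and Grb2, and the 2 called lower Itgb1 and Nos3. Foxo1, a transcription factor that TIE2 signaling holds in check, rose by 0.25 (SE 0.060, adjusted p = 0.00997 in edgeR), and was named after its values were seen. Ptprb, the endothelial phosphatase that acts on TIE2, averaged 1.36 ± 0.39 FPKM in CK and 1.14 ± 0.20 in the combination (SD, n = 3) and did not pass (log2 change -0.24, SE 0.25, adjusted p = 0.524). Akt1, further along the pathway, had a log2 change of -0.03 (SE 0.069, adjusted p = 0.765) in the combination.

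Angptl2, the abundant secreted factor, was the steadiest member, with the highest tumor at 1.35 times the lowest. CK tumors held 212.06, 215.04 and 181.25 FPKM and PB-020 tumors 194.8, 173.08 and 193.57. Anti-PD-1 tumors held 174.02, 182.81 and 177.41 FPKM and combination tumors 180.47, 158.78 and 184.33. CK tumor 3 was lower than the other CK tumors and all groups overlapped. The combination against CK gave a log2 change of -0.20 (95% interval -0.39 to -0.01, adjusted p = 0.128), and the main effect of anti-PD-1 -0.14 (95% interval -0.27 to -0.003, adjusted p = 0.123). Neither passed. The genes nearest to it were Myo6 (r = 0.933), Meis2 (0.926), Xpc (0.92), Pgm3 (0.913) and Gpd2 (0.909), and its r with Angpt1 was -0.716.

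Genes of the receptor families reported for Angptl2 were looked at next, not all of them known as its receptors. Pirb, a mouse leukocyte immunoglobulin-like receptor, averaged 14.2 ± 4.96 FPKM in CK and 15.1 ± 0.53 in the combination (log2 change 0.11, SE 0.27, adjusted p = 0.803). Lilrb4a, of the same family, averaged 83.9 ± 29.6 and 110.8 ± 12.4 FPKM (log2 change 0.40, SE 0.23, adjusted p = 0.252). The integrin subunit Itga5 had a log2 change of 0.05 (SE 0.076, adjusted p = 0.712) in the combination, so none of these 3 genes passed there. Without CK tumor 3, however, Lilrb4a was called higher in the combination (log2 change 0.74, adjusted p = 0.0152) and for the main effect of the antibody (0.44, adjusted p = 0.0118 in edgeR). Another integrin subunit, Itgb1, fell by 0.19 (SE 0.064, adjusted p = 0.0434) for that main effect, and its call was lost without anti-PD-1 tumor 1 (adjusted p = 0.0713) or CK tumor 3 (adjusted p = 0.0634).

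Angptl4, the lipase inhibitor, varied more within groups than between them. It stood at 24.78, 27.8 and 47.66 FPKM in CK and 26.58, 45.57 and 24.6 with PB-020. With anti-PD-1 it stood at 30.66, 25.21 and 22.68 FPKM, and in the combination at 21.23, 32.27 and 31.65. CK tumor 3, which held adipocyte transcripts, and PB-020 tumor 2 were the high ones. The main effect of anti-PD-1 was -0.26 (95% interval -0.76 to 0.24, adjusted p = 0.435), and the combination against CK -0.21 (95% interval -0.92 to 0.49, adjusted p = 0.67). Its nearest genes were Adamts4 (r = 0.906), Inhbb (0.905), Hmox1 (0.904), Notch4 (0.893) and Jam3 (0.877).

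Angptl4 is known as a target of hypoxia, and the genes of that program were counted beside it. Of 11 hypoxia genes, 6 were called higher and 0 lower for the main effect of the antibody, where 24.2% of all genes were called. By sign 10 were higher and 1 lower (median log2 change 0.26). Among those called were Pgk1 (0.58, SE 0.087, adjusted p = 0.00104 in edgeR) and Slc2a1, the glucose transporter (0.44, SE 0.091, adjusted p = 0.00584). Without CK tumor 3, 4 were called higher.

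Of 18 partners of the angiopoietin-like proteins 14 were tested. For the main effect of the antibody 2 were called higher and 2 lower, where 24.2% of all genes were called. These counts were 1 and 3 without anti-PD-1 tumor 1, and 3 and 2 without CK tumor 3. Gpihbp1, which anchors lipoprotein lipase on capillary endothelium, stood at 17.57 to 30.55 FPKM in CK, 8.32 to 11.67 with anti-PD-1 and 10.91 to 14.95 in the combination. It fell by 1.23 (SE 0.20, adjusted p = 0.00683) and 0.85 (SE 0.20, adjusted p = 0.012 in edgeR), with neither group overlapping CK, as was so for 29.1% and 40.7% of genes. Bmp1, a protease that can cut Angptl2, fell by 0.37 (SE 0.078, adjusted p = 0.0158) and 0.43 (SE 0.078, adjusted p = 0.0044 in edgeR) from 59.5 ± 5.67 FPKM in CK, the first call being lost without CK tumor 3. Tnfrsf11b, which encodes osteoprotegerin, rose by 1.20 (SE 0.29, adjusted p = 0.0148 in edgeR) in the combination, from 0.40 ± 0.096 to 0.90 ± 0.12 FPKM. Lpl itself, the enzyme that Angptl4 inhibits, stood at 2.38, 2.64 and 10.62 FPKM in CK, ran from 2.33 to 4.02 in the combination and did not pass (log2 change -0.64, SE 0.60, adjusted p = 0.486). Without CK tumor 3, the one with adipocyte transcripts, its sign turned (log2 change 0.40, adjusted p = 0.507 in edgeR).

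For the interaction of the agents 0 members passed. This term, the combination minus each single treatment plus CK on the log2 scale, was -0.13 (95% interval -1.73 to 1.47) for Angpt1 and 0.51 (-0.47 to 1.48) for Angpt2, each with an adjusted p of 1 in edgeR. These intervals are wide. The main effect of PB-020 lay between -0.25 (Tek) and 0.56 (Angpt1, SE 0.39, adjusted p = 0.626), and 0 members passed.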

How the data were processed

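Gene expression was measured in 12 MC38 tumors, and groups and tumor numbers were taken from the sample labels. The authors sequenced 150-base read pairs, aligned them with Bowtie2 (the labels also name HISAT; the build named there is GRCm38.p6, while the methods name mm10 or hg19) and ran RSEM. The deposited expected counts are estimated counts, not normalized, and 91% of values were whole. FPKM values as deposited were computed by the authors from counts, length and library total. The deposited TPM values were not tested. The authors' 12 mean columns were not used. Library strand is not given in the sources used here. Of 18211 gene numbers 18091 (99.3%) matched RefSeq. Where 2 rows shared a symbol, the row with more counts was used for gene lists.

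Expected counts were rounded, filtered with filterByExpr (minimum count 10), scaled by TMM and fitted with edgeR 4.0.16 (quasi-likelihood, robust, 4 group means, 12 tumors) in R 4.3.3. The tests were two-sided, with Benjamini-Hochberg adjustment over 13563 genes and a threshold of 0.05. Log2 CPM (prior count 2) served for correlations. Ratios to the endothelial level were compared by exact permutation of tumors. The computation was tested on simulated counts. The alternatives were DESeq2 1.42.0, limma 3.58.1 on log2(FPKM + 1) and log2(FPKM + 0.1), other filters and scaling, a fit of the compared groups alone, the tumor number as a replicate block, and each tumor left out; leaving a tumor out of the gene lists and of the fits of single partner genes was added after the data were seen. The 6 members and all gene lists were chosen with earlier results of these data known. Named genes are the members, partners called against CK at an adjusted p under 0.05 plus Ptprb, Lpl, Pirb and Lilrb4a, up to 3 genes per direction of each marker list by smallest p, and the 5 genes most correlated with each member. Akt1, Dok2, Foxo1, Grb2, Itga5, Itgb1 and Mcam were named after their values were seen. Promoter windows and positions came from RefSeq (GRCm38.p6), and gene overlaps from GENCODE. Errors of alignment are not in the intervals. A list of PPAR targets is not reported here.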

Additional observations from a re-analysis of the deposited data

How the results depend on the processing

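The rise of Angpt1 for the main effect of anti-PD-1 passed the threshold in all 18 alternatives that could fit it, with an adjusted p of 0.000382 to 0.0208 and a log2 change of 1.35 to 1.95 with a tumor left out. A strict filter of 50 counts in 3 tumors removed Angpt1. Of the 6 members, the number called for anti-PD-1 against CK was 0 in the fit reported (8.26% of all genes tested), 2 with DESeq2 (12.6%), 1 with the replicate block (6.41%) and 0 to 1 with a tumor left out. For the main effect of anti-PD-1 it was 2 (24.2% of all genes), or 1 with the strict filter (26.3%) and 1 to 2 with a tumor left out. For the combination against CK it was 1 (17.9%), or 2 with DESeq2 (20.9%), 0 with the strict filter (20.7%) and 0 to 2 with a tumor left out. For the combination against PB-020 it was 0 (3.35%), or 1 with DESeq2 (8.35%), 1 with only the groups compared (11.6%) and 0 to 1 with a tumor left out. The tumor numbers did not pair the samples: same-number tumors of different groups had r of -0.21 to 0.289 in their deviations from group means, 2 of 18 pairs were over 0.1, and 2 of 12 tumors correlated best with their own number. Apart from the change from 0 to 1 for anti-PD-1 against CK, where Angpt2 was called (adjusted p = 0.0489), the block changed no count of members called. Per endothelial level, the difference of Angpt2 between tumors given and not given anti-PD-1 ran from -0.75 to -0.49 with a tumor left out and passed 0.05 unadjusted in all but 4 of these; that of Tie1 was -0.15 when the sum of FPKM replaced the geometric mean. The cause of these changes was not tested.

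Signs turned over for values that never passed the threshold. Not all of these were near 0 in the fit reported: Angptl4 with anti-PD-1 against CK was at -0.33 and Angpt2 with PB-020 against CK at -0.29. The Angpt1 interaction was 0.29 and 0.13 with limma on log2(FPKM + 0.1) and log2(FPKM + 1), and -0.47 to 0.71 with a tumor left out. Angpt2 per endothelial level, PB-020 against CK, was -0.042 with the sum of FPKM and -0.16 to 0.29 with a tumor left out. Tek, the combination against anti-PD-1, was 0.035 with limma on log2(FPKM + 0.1) and -0.31 to 0.41 with a tumor left out; against PB-020 it was 6.89e-05 with DESeq2, 0.00335 and 0.00538 with limma, 0.00737 with the replicate block and -0.12 to 0.11 with a tumor left out. With a tumor left out, log2 changes with PB-020 against CK ran from -0.59 to 0.0033 for Angpt2 and -0.36 to 0.30 for Angptl4. The main effect of PB-020 ran from -0.18 to 0.11 for Angpt2, -0.12 to 0.21 for Angptl4 and -0.35 to 0.011 for Tek. For Angptl4, the combination ran from -0.38 to 0.13 against CK and -0.34 to 0.15 against PB-020, anti-PD-1 against CK from -0.50 to 0.0024, and the interaction from -0.18 to 0.48. The combination against anti-PD-1 ran from -0.065 to 0.038 for Angptl2 and -0.12 to 0.32 for Tie1, and the main effect of anti-PD-1 on Tie1 from -0.24 to 0.026. Per endothelial level, Tek ran from -0.13 to 0.10 (PB-020), -0.26 to 0.030 (anti-PD-1) and -0.19 to 0.049 (combination) against CK, and Tie1 from -0.076 to 0.022 (anti-PD-1) and -0.058 to 0.040 (combination). Depth limits Angpt1 most, with 2 to 52 counts per tumor.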
